A study of Mus musculus with 2 samples.

Results

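The 5 genes described here encode adhesion molecules through which circulating leukocytes attach to endothelium: Selp (P-selectin), Icam1, Icam2, Vcam1 and Mcam. They were chosen by name and are 5 of the 31057 rows of 2 deposited tables of single-cell counts from mouse liver endothelial cells. One table is a control library and the other a cirrhosis library. Each library came from the pooled cells of 3 mice, so there was 1 library per group and no spread between animals can be given. All mice were C57BL/6, aged 16 weeks and Cdh5-Cre+, mTmG +/+, in which a recombinase driven by an endothelial promoter switches membrane tdTomato to membrane GFP. Cirrhosis was induced by 12 weeks of inhaled carbon tetrachloride (CCl4), a toxin of hepatocytes around the central vein. The labels do not say what the control mice inhaled. Hepatocytes were spun out after collagenase perfusion, and live GFP-positive cells were sorted.

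Leukocytes slow down by rolling on selectins, stop when their integrins bind immunoglobulin-type ligands on the vessel wall, and then cross it. P-selectin is held in Weibel-Palade bodies, the storage granules of vascular endothelium, and binds the leukocyte ligand PSGL-1. ICAM-1 and ICAM-2 are ligands of the leukocyte integrin LFA-1, the first inducible by cytokines and the second largely constitutive. VCAM-1 is the inducible ligand of the integrin VLA-4, and Mcam (CD146) is an adhesion molecule of endothelial junctions and of mural cells. Sinusoidal endothelial cells of the liver (LSECs) line its capillaries, have open pores and are known for recruiting leukocytes largely without selectins.

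The genes lie on 4 chromosomes of GRCm38 in the GENCODE M21 annotation, and each is annotated as protein coding. Selp is at chr1:164115264-164150026 on the plus strand and Vcam1 at chr3:116109949-116129688 on the minus strand. Icam1 and Mcam are on chromosome 9, at chr9:21015985-21028817 and chr9:44134469-44142727, both on the plus strand. Icam2 is at chr11:106377656-106388075 on the minus strand. The 250 bases before the RefSeq start of Selp and of Icam1 are shown because these members had the largest differences between the libraries, in opposite directions. Both are from RefSeq on GRCm38.p6, plus strand, at chr1:164115014-164115263 and chr9:21015690-21015939, and capitals mark the motif matches.
Selp promoter: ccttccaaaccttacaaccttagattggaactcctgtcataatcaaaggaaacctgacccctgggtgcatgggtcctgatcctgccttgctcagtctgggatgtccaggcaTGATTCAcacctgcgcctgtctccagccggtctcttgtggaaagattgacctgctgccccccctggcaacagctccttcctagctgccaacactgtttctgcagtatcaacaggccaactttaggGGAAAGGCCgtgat
Icam1 promoter: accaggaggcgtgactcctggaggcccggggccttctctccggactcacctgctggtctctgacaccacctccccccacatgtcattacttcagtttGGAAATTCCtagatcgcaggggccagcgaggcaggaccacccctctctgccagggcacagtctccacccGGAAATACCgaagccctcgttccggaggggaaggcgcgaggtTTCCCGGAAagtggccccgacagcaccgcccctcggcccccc
Motifs of 3 kinds were searched for on both strands, and a match is a description, not a site of binding. An NF-kB-like GGNNNTTCC was in 15.7% of 32851 promoter windows of that length, an AP-1 motif TGANTCA in 6.75% and a GAS motif TTCNNNGAA, of the kind STAT factors bind, in 7.02%. The Selp window held TGATTCA (AP-1) at -139 to -133 and GGAAAGGCC (NF-kB-like, on the other strand) at -14 to -6, counted from the RefSeq start. The Icam1 window held GGAAATTCC at -153 to -145 (NF-kB-like on both strands), GGAAATACC at -84 to -76 (NF-kB-like, on the other strand) and TTCCCGGAA (GAS) at -42 to -34.

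The control table held 5642 barcodes with 45767322 UMIs (unique molecular identifiers, each standing for 1 captured transcript) and a median of 6864.5 per barcode, and the cirrhosis table held 8327 barcodes with 77339928 UMIs and a median of 8537. Only 17 barcode sequences occurred in both tables. After filters and removal of doublets, 4953 control and 7191 cirrhosis barcodes were retained. Despite the sort, retained barcodes included hepatocyte-like, Kupffer cell-like, lymphocyte-like and cholangiocyte-like ones, which served as a background for the members. Endothelial-like cells were clustered without the members and without the lists of related genes, and clusters were named from zone and vessel markers. Intermediate LSEC-like clusters are those left with LSEC markers but no zone or vessel name. Cells with a central vein profile numbered 110 in control and 97 in cirrhosis, pericentral LSEC-like cells 444 and 838, intermediate LSEC-like cells 1914 and 1817, periportal LSEC-like cells 451 and 352, and portal and arterial endothelium-like cells 100 and 251. Lymphatic endothelium-like cells (2 and 58) are outside these 5 classes, over which classes are ranked below. Levels of Rspo3, Gja5, Stab2 and Cdh5 describe the classes. They do not check the names, because these genes were among the naming markers. The central vein class had 1498 CPM (UMIs of a gene per 1000000 UMIs) of Rspo3 in control and 1151 in cirrhosis, and the portal and arterial class had 176 and 285 CPM of Gja5, an arterial connexin. Pooled LSEC-like cells (the pericentral, intermediate and periportal classes together) had 2387 and 1595 CPM of Stab2, a scavenger receptor of LSECs, and 1007 and 1116 CPM of the endothelial cadherin Cdh5. The reporter's GFP stood at 1726 and 1513 CPM in them and tdTomato at 0.527 and 0.50 CPM. In the central vein class Stab2 was at 1423 and 241 CPM and the median depth was 7896.5 and 14411 UMIs, so its cells were not alike in the 2 libraries. The summed level of 12 hepatocyte markers in pooled LSEC-like cells was 363 CPM in control and 552 in cirrhosis, with none at 0, and its part in the members' values was not tested. A level here is the CPM of all UMIs summed over a class in 1 library. Brackets give exact 95% intervals, which cover counting error only, and no test was possible with 1 library per group. Levels were not compared between genes.

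Across the pooled LSEC-like cells, the 5 molecules differed in direction. Selp was much higher in the cirrhosis library, Icam1 and Vcam1 were lower, and Icam2 and Mcam differed little. Of the 5 members, 2 (Selp and Icam1) were past 2-fold in pooled LSEC-like cells, where 3.46% of 6885 genes were, and 3 were past 1.5-fold, where 10.4% of genes were. Selp was among the 6885 genes, which needed a mean of 20 CPM, only through its cirrhosis level. The median log2 ratio of all these genes was -0.04. Over all endothelial-like cells that entered the clustering (3449 control and 3792 cirrhosis cells, zones and vessels together, so that no zone or vessel name was used), Selp was 3.65-fold higher (log2 1.87 [1.69, 2.04]). In the same cells Icam1 had a log2 ratio of -1.21 [-1.29, -1.13], Vcam1 -0.68 [-0.76, -0.61], Icam2 0.16 [0.12, 0.20] and Mcam 0.19 [0.13, 0.25].

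**Figure D1:**
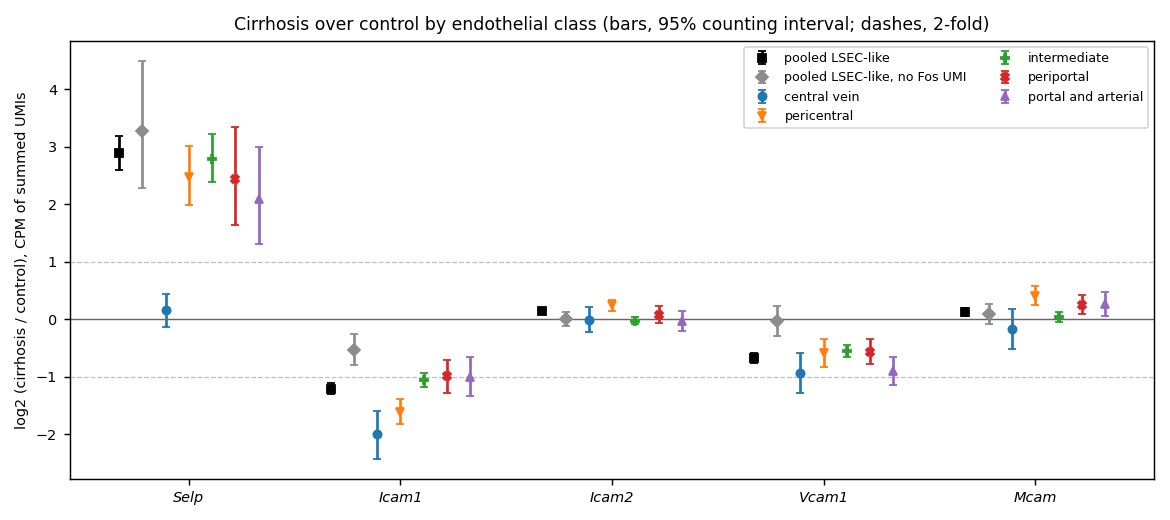
Log2 ratio of cirrhosis over control for the 5 members (horizontal axis) in pooled LSEC-like cells, in those of them with no Fos UMI, and in each endothelial class; bars are 95% counting intervals and dashes mark 2-fold. Selp lies above the upper dash in all groups of cells but the central vein class (0.16), Icam1 lies below 0 in all of them, and Icam2 stays near 0.

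The first member acts at the rolling step. Selp stood at 5.08 CPM [4.16, 6.14] in pooled control LSEC-like cells and 37.7 CPM [35.6, 40.0] in cirrhosis, a 7.43-fold difference (log2 2.89 [2.60, 3.19]). The pooled control level was no higher than the 5.70 CPM [3.12, 9.57] of T or NK cell-like barcodes, which are not known for the gene, so the denominator of this fold is at background and its size is not exact. It is the highest value among the clusterings tried, which gave log2 ratios down to 1.98, so the fold depends on which cells are called sinusoidal; the direction was the same in all of them. In control, P-selectin transcripts were a feature of the central vein class, at 175.1 CPM [149, 204] against 14.2 [7.74, 23.8] in portal and arterial, 10.9 [7.58, 15.1] in pericentral, 4.75 [2.66, 7.83] in periportal and 3.86 [2.92, 5.02] in intermediate cells. The central vein class stood above every other class with no overlap of intervals, 12.4-fold above the next one, the portal and arterial class. The portal and arterial and the pericentral class did not differ beyond counting error (log2 0.38 [-0.63, 1.31]), nor did the periportal and the intermediate class (0.30 [-0.63, 1.14]). Control levels in these last 2 classes were also no higher than in T or NK cell-like barcodes, so Selp was not detectable in them above background at this depth.

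In the cirrhosis library, the level of Selp was 60.9 CPM [56.1, 66.0] in pericentral, 26.8 [24.4, 29.4] in intermediate and 25.9 [20.7, 32.1] in periportal cells, and 60.4 [51.5, 70.4] in portal and arterial cells, against 9.19 [5.25, 14.9] in T or NK cell-like barcodes. Other barcodes that are not endothelial overlapped the intermediate and periportal levels, at 22.7 CPM [16.6, 30.2] in monocyte or other myeloid-like, 19.2 [14.9, 24.3] in cholangiocyte-like and 30.9 [22.7, 41.1] in plasmacytoid dendritic cell-like ones. Selp was also higher in cirrhosis in the first 2 of these, with log2 ratios of 3.42 [1.48, 6.50] from 2 control UMIs and 1.64 [0.77, 2.62]; whether free RNA has a part in the levels of the intermediate and periportal cells was not tested. The endothelial log2 ratios were 2.48 [1.99, 3.02], 2.79 [2.39, 3.22], 2.45 [1.65, 3.35] and 2.09 [1.30, 2.99] in the order given, the intermediate and periportal ones against control levels at background. The central vein class, already high in control, was at 195.5 CPM [173, 220], a log2 ratio of 0.16 [-0.12, 0.45] that does not differ from 0 beyond counting error. The highest class was 7.54-fold above the lowest in cirrhosis; no such range is given for control, where the lowest classes were at background. Pericentral and portal and arterial cells again did not differ (log2 -0.01 [-0.27, 0.24], portal over pericentral), nor did periportal and intermediate cells (-0.05 [-0.40, 0.29]).

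The 2 classes nearest the central vein need a caution. Most control pericentral cells (416 of 444) were in a cluster led by Kit, while 466 of 838 cirrhosis cells were in one led by Pi16, Thbd and Wnt9b that held 28 control cells. The Pi16-led cells carried pericentral markers, but their general LSEC markers went against the name, with a mean log2 fold of -1.3 against the other endothelial-like cells and 0 of the markers higher. Without the Pi16-led cells the pooled Selp log2 ratio was 2.73 and that of Icam1 -1.07. General LSEC markers were also slightly lower in the periportal cluster, with a mean log2 fold of -0.133 and a share of 0.25 of them higher. Selp was 10.0 and 63.0 CPM in the Kit-led cluster and 23.0 and 59.5 CPM in the Pi16-led one, so the direction was the same in both. The split between these classes was not stable. In 5 of 8 other clusterings the central vein class held few control cells, and its Selp ratio was between -1.64 and -1.42 while the pericentral ratio was between 0.52 and 0.73. With the Pi16-led cells named central vein, the central vein ratio was -0.76 and the pericentral one 2.65. Central vein cells numbered from 23 to 455 in control and from 97 to 878 in cirrhosis across the 8 clusterings and the one reported. The level of Selp next to the central vein, as compared between the libraries, therefore rests on how that class is drawn. The intermediate ratio (2.73 to 3.46) and the periportal ratio (2.34 to 2.97) stayed past 2-fold under every alternative that gave a value.

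**Figure D2:**
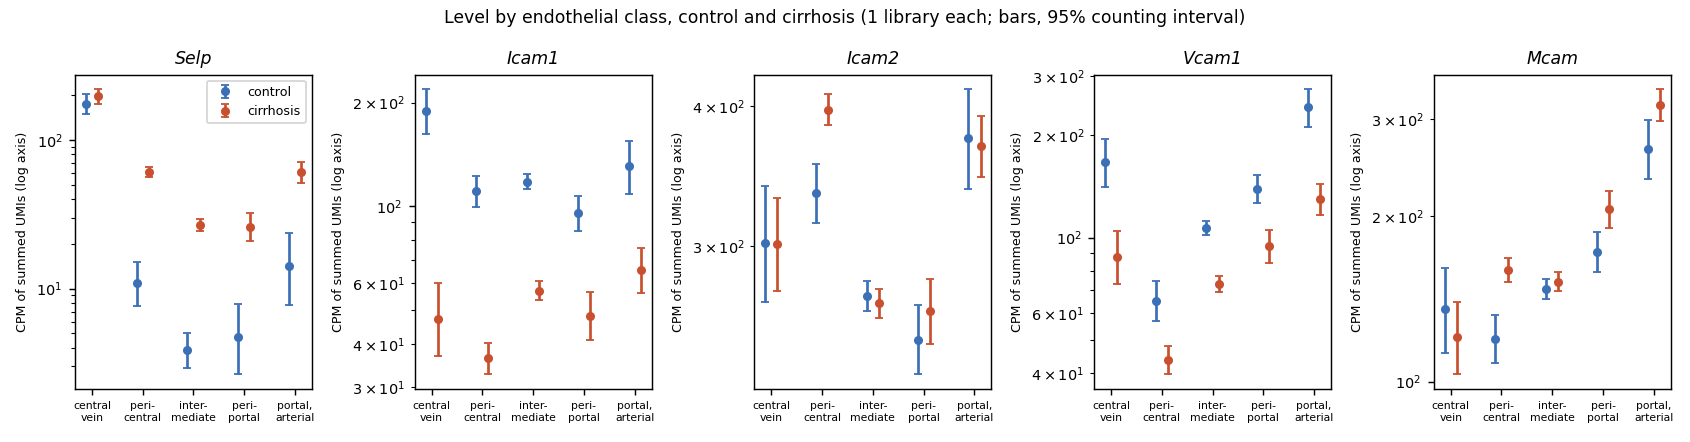
Level of each member in CPM of summed UMIs (log axis, its range set per gene) by endothelial class in the control and cirrhosis libraries; bars are 95% Poisson intervals. Selp in control is at 175.1 CPM in the central vein class and 3.86 in the intermediate class, and the Icam1 points of cirrhosis lie below those of control in every class.

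Shares of cells with a Selp UMI were higher in cirrhosis in pooled LSEC-like cells. With every cell thinned to 3000 UMIs, 31 of 2592 control LSEC-like cells (1.20% [0.81, 1.69]) and 255 of 2895 cirrhosis cells (8.81% [7.80, 9.90]) had a Selp UMI; 217 and 112 shallower cells were left out. Without thinning, the shares were 2.17% and 21.5%, at median depths of 6887 and 9862 UMIs. The share was 34.6% [25.6, 44.4] and 36.1% [26.6, 46.5] in central vein cells and 3.4% and 14.7% in pericentral cells. It was 0.760% and 6.43% in intermediate, 0.682% and 6.38% in periportal and 6.12% [2.28, 12.9] and 13% [9.07, 17.9] in portal and arterial cells, where the intervals overlapped. In T or NK cell-like barcodes it was 0.719% and 1.63% (median depths of 7062 and 6010 UMIs), and in hepatocyte-like barcodes 0 of 26, which allows a share of up to 11.5% as 3 counts of the total (Clopper-Pearson limit 13.2%), and 0.230% of 435 (median depths of 4426.5 and 5444). The control shares in intermediate and periportal cells are at the T or NK level and are read as background. Plasmacytoid dendritic cell-like barcodes, which are deep (medians of 15748 and 18975.5 UMIs), had shares of 1.79% and 7.50% and a control level of 21.4 CPM, so some barcodes named as other types also carried the transcript. The mean was 1.45 Selp UMIs per positive LSEC-like cell in control and 1.20 in cirrhosis at 3000 UMIs. A mean near 1 follows from a low level after thinning, so these means do not show how many copies a cell held. Platelets also carry P-selectin, and the summed level of 7 platelet or megakaryocyte markers in pooled LSEC-like cells was 33.7 and 40.9 CPM, with Gp1bb at 0 in both libraries and no other marker at 0; their part in the Selp difference was not tested.

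**Figure D3:**
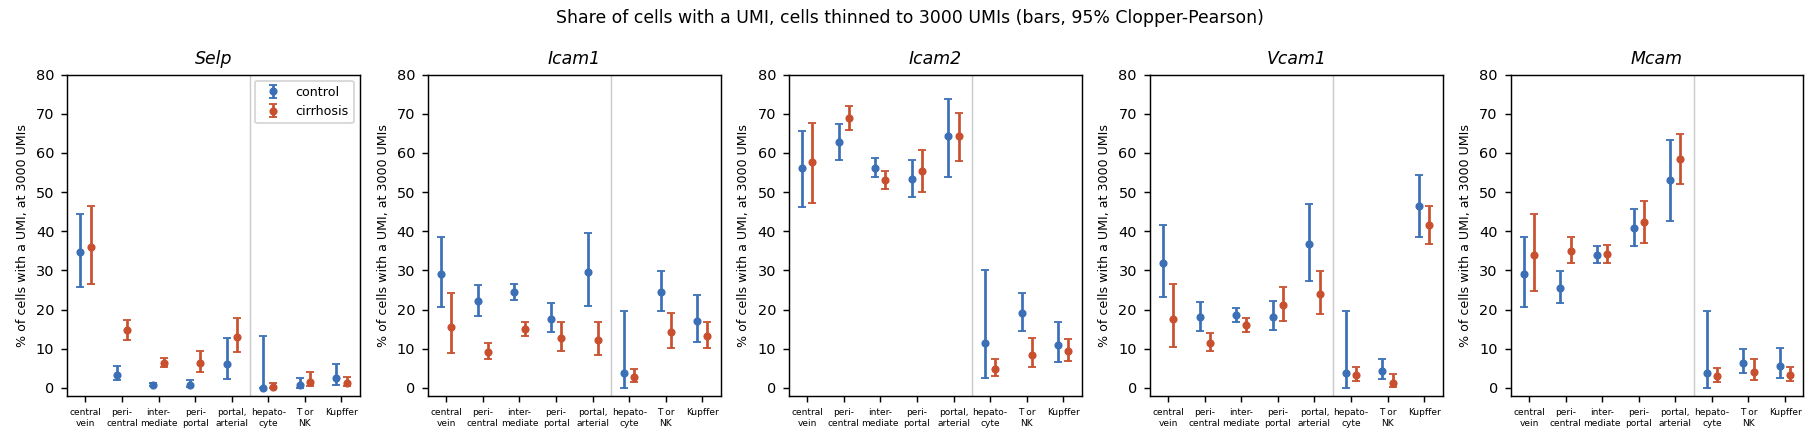
Percent of cells with at least 1 UMI of each member after thinning every cell to 3000 UMIs, by endothelial class (left of the grey line) and in hepatocyte-like, T or NK cell-like and Kupffer cell-like barcodes (right of it); bars are 95% Clopper-Pearson intervals. Selp in cirrhosis is at 14.7% of pericentral and 13% of portal and arterial cells, against 3.4% and 6.12% in control, while Icam2 is in over 50% of cells in every endothelial class of both libraries.

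The immunoglobulin-type ligands act at the next step, firm adhesion. Icam1 was at 113.5 CPM [109, 118] in pooled control LSEC-like cells and 49.3 CPM [46.8, 51.9] in cirrhosis, 2.30-fold lower (log2 -1.20 [-1.30, -1.11]). It was lower in cirrhosis in all 5 classes. The level went from 189 CPM [162, 219] to 47.3 [36.7, 60.0] in central vein cells (log2 -2.0 [-2.42, -1.59]) and from 110.7 [99.5, 122.8] to 36.3 [32.6, 40.3] in pericentral cells (-1.61 [-1.82, -1.39]). The differences were smaller away from the central vein. Icam1 went from 118 CPM to 57.0 in intermediate (-1.05 [-1.17, -0.94]), from 95.6 to 48.2 in periportal (-0.99 [-1.27, -0.71]) and from 130.5 to 65.5 in portal and arterial cells (-0.99 [-1.33, -0.66]). The pericentral ratio was -1.28 in the Kit-led cluster alone and -2.47 in the Pi16-led one, which held 28 control cells. The intermediate clusters also differed in size and ratio. Icam1 was at -0.65 [-0.89, -0.41] in the Cnmd-led cluster (391 control and 961 cirrhosis cells). In the Gm42418-led cluster (490 and 329 cells) it was at -0.56 [-0.99, -0.14]. The ratio was -1.05 and -1.07 in the Fosb-led clusters (642 and 140 cells, 342 and 169 cells) and -1.31 in the Esm1-led one (49 and 218).

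The order of the classes for Icam1 also differed between the libraries. In control, the central vein class was the highest of the 5, 1.45-fold above the portal and arterial class (log2 0.53 [0.20, 0.87]). In cirrhosis the highest of the 5 was the portal and arterial class, 1.38-fold above the central vein (log2 of central vein over portal -0.47 [-0.89, -0.06]). It was not beyond counting error above the intermediate class, the next in order (0.20 [-0.04, 0.43]). Lymphatic endothelium-like cells of cirrhosis, outside the 5 classes, had more Icam1, at 101.6 CPM [77.9, 130.2] in 58 cells. The control portal and arterial, intermediate and pericentral classes did not differ beyond counting error, and neither did the cirrhosis central vein, periportal and intermediate classes. The whole range was 1.98-fold in control and 1.80-fold in cirrhosis. At 3000 UMIs, 23.0% of control and 13.1% of cirrhosis LSEC-like cells had an Icam1 UMI (40.3% and 32.3% unthinned), against 3.85% and 2.76% of hepatocyte-like barcodes. Icam1 is not specific to endothelium, and some other barcodes also had less of it in cirrhosis. It was 124.6 and 58.6 CPM in T or NK cell-like barcodes (log2 -1.09 [-1.43, -0.76]) and 88.0 and 54.1 CPM in Kupffer cell-like ones (-0.70 [-0.96, -0.44]). The intervals of cholangiocyte-like (-0.14 [-0.43, 0.16]) and plasmacytoid dendritic cell-like barcodes (-0.27 [-0.68, 0.15]) held 0, and B cell-like ones had more Icam1 in cirrhosis (15.2 and 33.3 CPM, log2 1.13 [0.05, 2.28]).

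Vcam1 was at 105 CPM [101, 110] in pooled control LSEC-like cells and 65.9 CPM [63.1, 68.9] in cirrhosis (log2 -0.67 [-0.76, -0.59], 1.60-fold lower). In control it was at 241.8 CPM [212, 274] in portal and arterial, 166.5 [141, 195] in central vein, 138.9 [126, 153] in periportal, 106.8 [102, 112] in intermediate and 65.3 [56.8, 74.7] in pericentral cells. Neighbours in that order differed beyond counting error, except the central vein and periportal classes (log2 0.26 [-0.01, 0.53]). The control share of cells with a Vcam1 UMI at 3000 UMIs was alike in pericentral (18.1%), intermediate (18.6%) and periportal cells (18.2%). Positive cells had a mean of 1.175 UMIs in pericentral and 2.06 in periportal cells, with at most 3 and 15 UMIs in a cell. The intervals do not cover such spread between cells. The order of these LSEC-like classes is therefore one of summed UMIs, not of how many cells had the transcript. The cirrhosis library had the same highest and lowest classes at lower levels, 129.95 CPM [117, 144] in portal and arterial and 43.7 [39.6, 48.0] in pericentral cells, with 94.3 in periportal, 87.7 in central vein and 73.2 in intermediate cells. The log2 ratios ran from -0.54 [-0.65, -0.44] in intermediate to -0.93 [-1.28, -0.58] in central vein cells. The pericentral ratio of -0.58 was -0.25 [-0.54, 0.04] in the Kit-led cluster alone. The intermediate ratio was 0.03 [-0.36, 0.41] in the Gm42418-led cluster and between -0.68 and -0.45 in each of the other intermediate clusters. No class was past 2-fold for Vcam1.

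At 3000 UMIs, 18.4% of control and 15.4% of cirrhosis LSEC-like cells had a Vcam1 UMI (32.8% and 33.4% unthinned), against 4.32% and 1.22% of T or NK cell-like barcodes. In periportal cells the share, 18.2% and 21.2%, went against the CPM, so no order is read from it. Kupffer cells are known to carry Vcam1, and their barcodes had 365 CPM in control and 386 in cirrhosis. The summed level of 11 Kupffer cell markers in pooled LSEC-like cells was 89.4 CPM in control and 266 in cirrhosis, with none at 0; their part in the Vcam1 value was not tested. The sum of 11 stellate, fibroblast or mural cell markers was lower in cirrhosis, as Vcam1 and Icam1 were, at 112 and 44.2 CPM in pooled LSEC-like cells with none at 0. It was 149 and 36.9 CPM in central vein, 154 and 44.5 in periportal and 88.0 and 64.8 in portal and arterial cells, and its part in either difference was not tested. Over all retained barcodes, endothelial or not, the log2 ratio of Vcam1 was -0.19 [-0.24, -0.13]. T or NK cell-like barcodes had less Vcam1 in cirrhosis (53.8 and 8.62 CPM, log2 -2.64 [-3.52, -1.87]). Cholangiocyte-like ones had more (82.9 and 182 CPM, 1.14 [0.89, 1.39]). The intervals of hepatocyte-like, Kupffer cell-like, B cell-like, monocyte or other myeloid-like, plasmacytoid dendritic cell-like and stellate, fibroblast or mural cell-like barcodes held 0.

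Icam2, the constitutive ligand, was at 277 CPM [270, 284] in pooled control LSEC-like cells and 308 CPM [302, 315] in cirrhosis (log2 0.15 [0.11, 0.20]). Its levels in the central vein class were 301.9 and 301.3 CPM, and 4 of the 5 class ratios had intervals that held 0. The exception was the pericentral class, at 334.5 CPM [315, 355] and 397.0 [385, 410] (log2 0.25 [0.15, 0.35]), but the 2 clusters of that class did not show it on their own (Kit-led 0.10 [-0.02, 0.22], Pi16-led -0.02 [-0.32, 0.29]). The central vein ratio was between 0.25 and 0.92 in 8 alternatives. The range over classes was 1.51-fold in each library, with the periportal class the lowest in both. At 3000 UMIs, 56.9% [54.9, 58.8] of control and 58.0% [56.1, 59.8] of cirrhosis LSEC-like cells had an Icam2 UMI (79.2% and 87.0% unthinned), against 11.5% and 4.83% of hepatocyte-like barcodes.

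Mcam, the junctional member, was at 146.8 CPM [142, 152] in pooled control LSEC-like cells and 160.3 CPM [156, 165] in cirrhosis (log2 0.13 [0.06, 0.19]). The portal and arterial class was the highest in both libraries, at 265 CPM [234, 299] and 318.8 [298, 341]. In control it stood 1.54-fold above the periportal class (172 CPM), and the pericentral class was the lowest (119.7 CPM [108, 132]), though it did not differ from the central vein class beyond counting error (log2 of central vein over pericentral 0.18 [-0.12, 0.47]). In cirrhosis the central vein class was the lowest (120.4 CPM [103, 140]), below the pericentral class at 159.4 [152, 168]. The largest ratio between the libraries was the pericentral one, log2 0.41 [0.25, 0.58], followed by portal and arterial cells (0.27 [0.07, 0.47]) and periportal cells (0.26 [0.09, 0.42]). In the Kit-led cluster alone it was 0.29 [0.10, 0.48], close to those of the other 2 classes, and in the Pi16-led one 0.55 [-0.02, 1.18]. At 3000 UMIs, 33.8% and 35.4% of LSEC-like cells had a Mcam UMI (58.6% and 71.3% unthinned) and 53.1% and 58.5% of portal and arterial cells did, against 6.47% and 4.07% of T or NK cell-like barcodes.

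By class, the members past 2-fold were 2 in pericentral cells (Selp and Icam1), where 6.38% of genes were, 2 in intermediate cells (the same pair), where 2.99% were, and 1 in central vein cells (Icam1), where 10.8% were. In periportal cells it was 1 (Selp, 3.28% of genes) and in portal and arterial cells 1 (Selp, 4.48%), with Icam1 just inside 2-fold in both. Within the intermediate class, Icam1 was inside 2-fold in the Cnmd-led and Gm42418-led clusters taken alone (-0.65 and -0.56). These shares are over genes at a mean of 20 CPM. Selp was below that mean in intermediate (3.86 and 26.8 CPM) and periportal cells (4.75 and 25.9 CPM), so those shares do not cover it. In pericentral and in portal and arterial cells Selp passed that mean only through its cirrhosis level. Among LSEC-like cells thinned to 3000 UMIs, detection of one member with and without another differed beyond counting intervals only for Icam1 with Vcam1, of all pairs in both libraries. A Vcam1 UMI was seen in 23.2% [19.8, 26.8] of the control cells with an Icam1 UMI and 17.0% [15.4, 18.8] of those without one, and in 24.5% [20.3, 29.2] and 14% [12.7, 15.4] of the cirrhosis cells. Selp in cirrhosis was found in 9.23% [6.52, 12.6] of cells with Icam1 and 8.74% [7.67, 9.92] of those without.

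The immediate-early gene Fos, a subunit of AP-1 that is induced within minutes of cell stress, including tissue dissociation, differed between the libraries and is given beside these results. In pooled LSEC-like cells Fos was at 2185 CPM in control and 211 in cirrhosis, and in central vein cells at 2745 and 438. Control clusters of at least 20 cells spanned 203 to 3172 CPM of Fos with 41.4 to 189 CPM of Icam1. In cirrhosis the lymphatic endothelium-like cluster (58 cells) had 2450 CPM of Fos and 101.6 CPM of Icam1. The other cirrhosis clusters of that size spanned 49.4 to 651 CPM of Fos with 31.5 to 67.5 CPM of Icam1. Icam1 was lowest in the control clusters that had the least Fos: 41.4 CPM (10 UMIs) in an unnamed cluster with 203 CPM of Fos, where cirrhosis had 39.5 CPM (9 UMIs) of Icam1, and 80.6 CPM in the cluster led by Gm42418, with 277 CPM of Fos, where cirrhosis had 54.8. These clusters were also the shallowest, with control medians of 3477 and 3436 UMIs. Pooled LSEC-like cells without a Fos UMI (490 control and 1343 cirrhosis cells) were shallow in control, with a median of 4353 UMIs against 6887 in all control cells, and had 8405 against 9862 in cirrhosis, so lack of Fos and low depth cannot be told apart here. In them Icam1 was 70.1 and 48.7 CPM, a log2 ratio of -0.53 [-0.79, -0.26]. In those cells Vcam1 was 64.2 and 62.8 CPM (log2 -0.03 [-0.29, 0.24]), so its lower level in cirrhosis was not seen there. Selp was 3.67 and 35.6 CPM in them (log2 3.28 [2.29, 4.5]), on 8 control UMIs. The part of Fos-positive cells in the Icam1 and Vcam1 differences beyond these values was not tested.

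**Figure D4:**
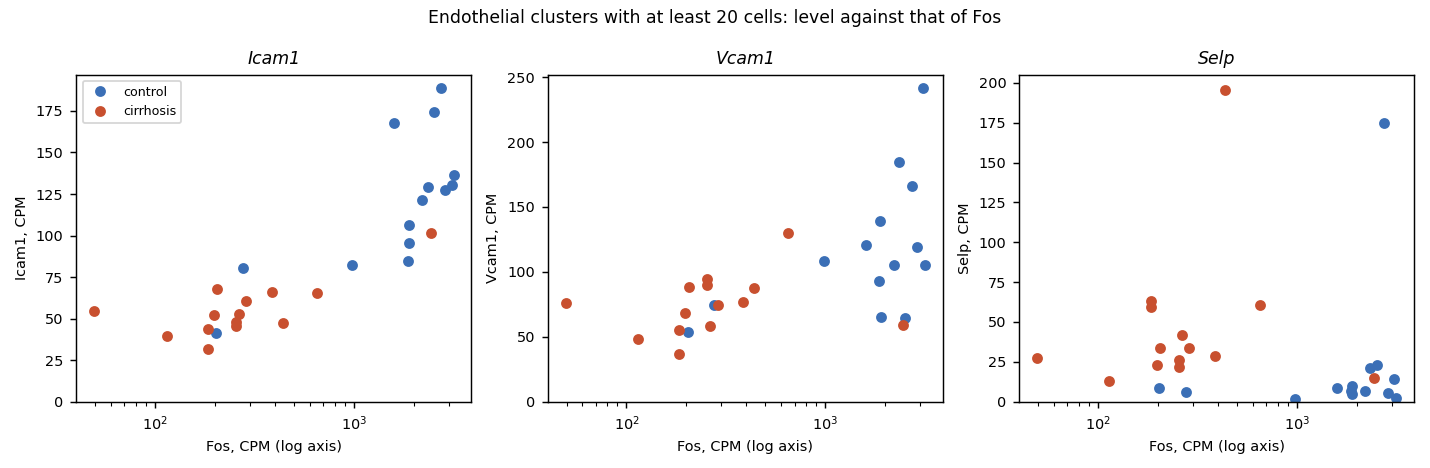
Level of Icam1, Vcam1 and Selp (vertical axes, CPM) against that of Fos (horizontal axis, CPM, log axis) in each endothelial cluster with at least 20 cells in a library, 1 point per cluster and library; clusters of 1 library share cells' handling and depth, so the points are not independent. The highest control Icam1 (189 CPM) is at 2745 CPM of Fos and the lowest (41.4 CPM) at 203, and the 2 high Selp points (175.1 and 195.5 CPM) are the central vein class of each library.

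Lists of related genes were described by counts and medians in pooled LSEC-like cells, beside a median of -0.04 over all 6885 genes, of which 45.0% were higher in cirrhosis and 3.46% past 2-fold. Counts near these shares, such as those of the cytokine receptors and the Weibel-Palade body genes by direction, are not a result about the list. A gene counted as measured at a mean of 20 CPM. Selp (5.08 and 37.7 CPM) and Vwf passed this cut only through their cirrhosis level. Their counts as higher follow from the cut and are not a result about their lists. Of 10 selectins and their ligands, 4 were measured and all 4 were higher in cirrhosis, 2 past 2-fold (median log2 1.72, and 0.55 at a minimum of 50 CPM): Cd34, a sialomucin that can carry selectin ligands, went from 22.6 to 180.4 CPM (log2 3.00), Selp had 2.89 and the sialomucin Podxl 0.55. E-selectin (Sele) was at 1.48 and 2.80 CPM, below that level. Of 16 Weibel-Palade body genes, 11 were measured, 6 higher and 5 lower, with 3 and 1 past 2-fold and a median of 0.01. The storage body's main cargo, Vwf, went from 4.45 to 57.4 CPM (log2 3.69), its membrane protein Cd63 from 40.0 to 207.5 (2.37), and Selp is the third. Angpt2, another cargo gene, went the other way (-1.29).

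Of 21 endothelial adhesion and transmigration genes, which include 4 of the members, 18 were measured, 11 higher and 7 lower, 3 and 1 past 2-fold (median 0.12). Bcam, a laminin-binding adhesion molecule, had a log2 ratio of 1.54, the tetraspanin Cd9, which organises adhesion platforms, 1.42, and Icam1 -1.20. Of 12 measured cytoskeletal anchors (13 listed), 9 were higher and 3 lower, 1 past 2-fold (median 0.19): filamin A (Flna) had 1.08, alpha-actinin 1 (Actn1) 0.95 and moesin (Msn) 0.56. Of 14 measured genes of the NF-kB pathway and its targets (23 listed), 4 were higher and 10 lower, 2 of the latter past 2-fold (median -0.14). The atypical inhibitor protein gene Nfkbiz had -2.66, the transcription factor Irf1 -1.55 and Csf1 -0.53. Of 11 measured cytokine receptor genes (14 listed), 4 were higher and 7 lower, with 1 past 2-fold (median -0.30): the oncostatin M receptor Osmr had -1.03, its partner Il6st -0.56 and Il13ra1 -0.53. Of 11 leukocyte integrins and other receptors, which endothelium should mostly lack, 2 were measured (Itgb1 0.26 and Itga9 0.12; median 0.19), both of which are also known in endothelium.

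**Figure D5:**
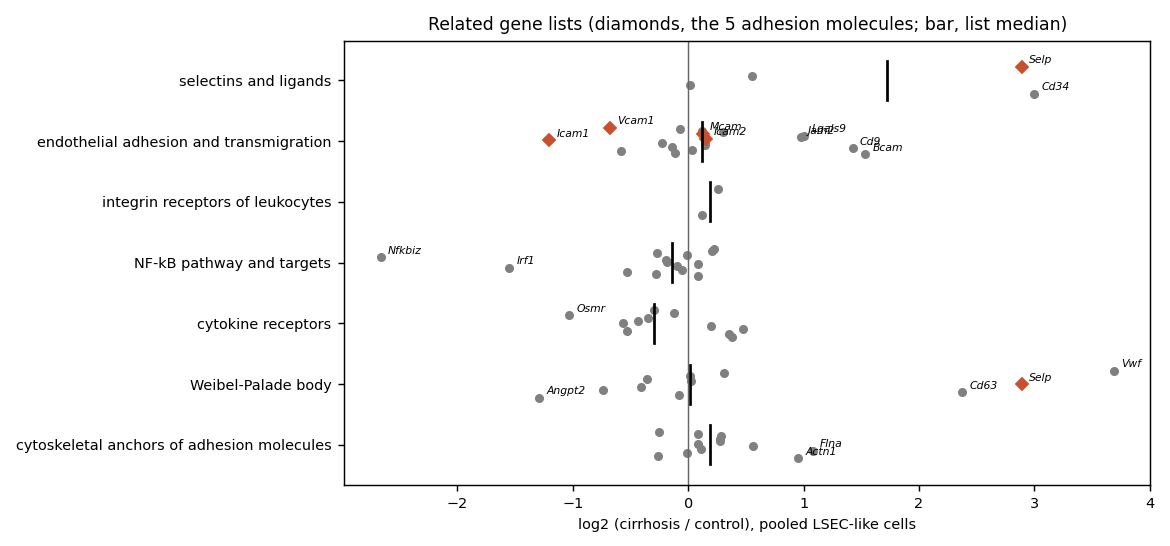
Log2 ratio of cirrhosis over control in pooled LSEC-like cells (horizontal axis) for each measured gene of the 7 lists (rows); diamonds are the 5 adhesion molecules, bars are list medians and height within a row is only spread for legibility. Selp, Cd34, Vwf and Cd63 lie beyond 2 on the right, and Nfkbiz lies lowest at -2.66.

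Across the 10 profiles (5 classes in each library), the genes most like each member by Pearson correlation of log2(CPM + 1), among 3920 genes, were the following, as a description over profiles that share libraries and depth. For Selp they included Mrpl30 (r = 0.98) and Prdx1, a peroxiredoxin (0.96). For Icam1 they were the transcription factor Cebpb, Taf7 and the cytokine signalling inhibitor Socs3 (each 0.97). The 2 ligands that were lower in cirrhosis had different neighbours: Vcam1 was most like the transcription factor Nfib (0.95), Kcnq1ot1 (0.94) and Crim1 (0.93). Mcam was most like Tm4sf1 (0.96), the endothelial transcription factor Fli1 (0.96) and the Notch target Nrarp (0.93). Icam2, with the smallest range, had lower values, with Stox2 at 0.83 and Psmb2 and Dph3 at 0.82.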

How the data were processed

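The deposited values were raw counts of UMIs for each gene and barcode, whole numbers with no normalization. They came from a droplet assay with 3' v3 chemistry, per the labels' protocols. Cell Ranger and mm10 were used, per the submitters' processing notes, and the sources used here give no version or annotation. Both tables started at 500 UMIs per barcode. The 3' assay does not separate isoforms.

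Barcodes needed 500 UMIs, 300 genes, under 20% mitochondrial and at most 5% erythroid counts (475 control and 666 cirrhosis barcodes removed). Doublets were scored per library against simulated ones, and the top 0.8% per 1000 barcodes (214 and 470) were removed. Leiden clustering (2000 variable genes, 30 components, 20 neighbours) was run at resolution 0.5 on all cells. It was run again at 1.1 on endothelial-like cells with at most 0.5% of counts from another cell type's markers, scaled per library. A zone or vessel name needed a mean marker log2 fold of 0.4, 66% of markers up and a marker among the 10 leading genes. The central vein name also needed Rspo3 among them. Clusters with at least 2 markers of other types among these 10, and more of them than endothelial ones, stayed unnamed. Remaining clusters were called intermediate LSEC-like where LSEC markers were higher on average than in the other clusters, with at least 50% of them up. No leading gene was required for that name. Unnamed endothelial clusters (430 and 437 cells), lymphatic endothelium-like cells (2 and 58) and cells over the limit (374 and 412) were left out of the 5 classes.

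The members and lists were chosen with earlier results of these data known. Resolution 1.1 was taken after 0.5, 0.8 and 1.1 had been viewed with the members' values. A first naming rule, which called the Pi16-led cluster central vein, was replaced after its values had been seen. Both are among the alternatives.

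CPM were computed from summed counts with exact Poisson intervals, ratios with exact conditional binomial ones and shares with Clopper-Pearson ones, at 95%. Genes named from a list were the 3 with the largest absolute log2 ratio in pooled LSEC-like cells at 20 CPM or more in either library, and for each member the 3 most alike in profile at a mean of 50 CPM. Of the genes so chosen, 1 is not reported here. The ratio and interval were tested on simulated data. The simulated counts were Poisson, as the intervals assume, so spread of UMIs between cells was not part of that test. Sele, Angpt2, Fos and marker genes outside this rule were named after their values were seen. Tools were Python 3.11.15, numpy 2.4.6, scipy 1.17.1, pandas 2.3.3, scikit-learn 1.9.0, leidenalg 0.10.2, igraph 0.11.9 and matplotlib 3.10.9.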

Additional observations from a re-analysis of the deposited data

How the results depend on the processing

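No paired analysis was possible because there was 1 library per group. With no replicates, moved means outside the counting interval, which is narrow at these depths. Of the pooled ratios, 30 of 70 alternatives moved the value by more than that and none changed its sign; of the class ratios, 65 moved, 4 reversed and 230 did not move. In pooled LSEC-like cells the Selp log2 ratio was 1.98 at the lower clustering resolution of 0.8, 2.06 with a stricter cell filter, 2.12 with doublets kept, 2.21 with no limit on other cell types' markers, 2.05 with a limit of 0.25%, 2.58 with zones weighted equally and 3.28 in cells with no Fos UMI. Icam1 was -1.10 with the stricter filter, -0.53 with no Fos UMI, -1.08 as the mean over cells, -1.04 at resolution 0.5 and -1.07 with the Pi16-led cluster named central vein. Icam2 was 0.077, 0.076, 0.076, 0.077 and 0.084 under the first 5 alternatives named for Selp, 0.066 with the members in the clustering, 0.0062 at resolution 0.5, 0.012 with no Fos UMI, 0.10 with zones weighted equally and 0.021 with the Pi16-led cluster as central vein. Vcam1 was -0.52 with the stricter filter, -0.58 with the 0.25% limit, -0.56 at resolution 0.5, -0.030 with no Fos UMI, -0.56 with zones weighted equally, -0.52 as the mean over cells and -0.53 with the Pi16-led cluster as central vein. Mcam was 0.24 with zones weighted equally. A ratio counted as reversed where its reported interval excluded 0 and its sign changed. These were Vcam1 in cells with no Fos UMI (0.0026 pericentral, 0.077 intermediate and 0.13 periportal) and Icam2 in the Pi16-led cluster alone (-0.018), all with intervals that held 0; the causes were not tested. The 7 class ratios whose reported interval held 0 changed sign in 24 of 81 alternatives, among them Selp in central vein cells (7 alternatives, -1.64 to -0.72), Icam2 in central vein (8, 0.25 to 0.92) and periportal cells (-0.30) and Mcam in central vein cells (4, 0.12 to 0.37). List medians moved for selectins and ligands (0.55 at a minimum of 50 CPM), the NF-kB list (-0.03 at 10 CPM and -0.27 at 50 CPM) and the cytoskeletal anchors (0.11 at 10 CPM). Of the shares, 112 of 120 moved with depth, as unthinned cells and 1500 UMIs give other levels. The 0.5 resolution, the naming of the Pi16-led cluster, its separate use and the fit without the Gm42418-led cluster were added after seeing the data. At resolution 0.5 no pericentral class was found, so it has no value there, and too few central vein and portal and arterial cells lacked Fos for a value. Icam1 was lower in cirrhosis in all 5 classes under every alternative that gave a value (-2.75 to -0.36). Zones as 3 equal parts by marker score gave Selp ratios of 2.78, 3.17 and 2.70 from pericentral to periportal. Depth limits Selp most: in control it rested on 15 UMIs in periportal and 14 in portal and arterial cells.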
